A study of Mus musculus with 6 samples.

Results

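Accessible chromatin near 6 genes for HOX cofactors, *Meis1*, *Meis2*, *Meis3*, *Pbx2*, *Pbx3* and *Pbx4*, was described in mouse neural stem and progenitor cells (NSPCs) with and without an enhancer cluster of *Sox2*. A region was assigned to one of these genes when its strongest summit lay nearest to a transcription start site (TSS) of that gene among all protein-coding genes, at most 50 kb away. This gave 62 of 190365 regions, of which 31 of 82885 came from the parent list and 31 of 107480 from the deletion list. ATAC-seq, in which a transposase cuts and tags open DNA, was performed on NSPCs derived from 129S1/Cast F1 hybrid embryonic stem cells and grown in N2B27 medium with EGF and bFGF. The parent line (Clone 5B) had the genotype Sox2-mCherry (129), an mCherry reporter at *Sox2*. The deletion line (Clone 47D) carried the same reporter and a homozygous deletion of SRR2–18, the enhancer cluster downstream of *Sox2* (ΔSRR2–18 NSPCs). Each line was a single clone represented by 3 cultures, and the peak lists were pooled over the cultures. Spread between cultures was therefore not measured, and the lines were compared without a test. An effect of the deletion cannot be told apart from a difference between the clones, and fewer cells with an open region cannot be told apart from less opening per cell.

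MEIS and PBX proteins are homeodomain transcription factors of the TALE class. PBX proteins bind DNA together with HOX proteins and sharpen their choice of sites, and MEIS proteins join PBX, or PBX and HOX, in larger complexes. They act in the patterning of the hindbrain, limbs and other parts of the embryo, and in stem and progenitor cells of blood and brain.

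The open regions discussed most below carry the following sequences, each read 5′ to 3′ on the forward strand of GRCm38 (mm10) and 200 bases long around the strongest summit. The first 3 are shown because they were the highest regions of *Pbx4* and *Meis1* away from a TSS that were found in the deletion list alone or exceeded the parent most, and the fourth because it was the highest parent-only region of *Pbx3*. Capitals mark a match to the AP-1 motif TGANTCA in the first 3 and to the HOX-PBX motif TGATNNAT in the fourth. The last 3 of the 4 were chosen after their values were seen. Deletion-only regions of *Meis2* at 13.2 kb and 42.2 kb (top 19.7% and 26.3%) ranked above the third (top 36.5%). They had no AP-1 match and are not printed. Also not printed are the windows 836 bp upstream of *Pbx3* (parent, top 4.34%) and 1523 bp upstream of *Meis1* (deletion, top 8.96%). These ranked above the last 3 printed and held no match to any motif counted below. The printed matches are therefore not typical: AP-1 matched in 2 of the 12 deletion-only regions of the 6 genes, beside 50.7% of all deletion-only regions.
Pbx4 intron, chr8:69849100-69849299: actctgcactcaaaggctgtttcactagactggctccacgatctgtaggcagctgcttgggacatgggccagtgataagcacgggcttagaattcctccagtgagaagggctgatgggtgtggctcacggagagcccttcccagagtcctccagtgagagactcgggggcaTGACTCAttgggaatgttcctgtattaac
Meis1 intron, chr11:18989062-18989261: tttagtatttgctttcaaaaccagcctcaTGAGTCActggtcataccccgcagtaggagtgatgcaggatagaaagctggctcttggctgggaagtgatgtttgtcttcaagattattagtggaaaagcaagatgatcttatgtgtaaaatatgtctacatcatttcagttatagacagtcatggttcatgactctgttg
Meis1 intron, chr11:18973950-18974149: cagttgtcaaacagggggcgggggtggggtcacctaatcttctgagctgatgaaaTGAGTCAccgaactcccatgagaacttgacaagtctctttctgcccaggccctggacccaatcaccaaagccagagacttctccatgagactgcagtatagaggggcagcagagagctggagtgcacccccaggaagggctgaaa
Pbx3 intron, chr2:34360147-34360346: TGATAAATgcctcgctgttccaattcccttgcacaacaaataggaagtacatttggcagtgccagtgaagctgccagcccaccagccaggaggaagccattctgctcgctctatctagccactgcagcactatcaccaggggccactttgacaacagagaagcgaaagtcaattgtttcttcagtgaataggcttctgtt

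The TSS regions of *Meis1* and *Meis2*, the longest genes of the MEIS group, also shared a block of sequence. It was found by comparing the 200-base windows at their summits after both had been seen, and it is shown because it joins paralogs on different chromosomes. The block was 25 bases long with 24 identical bases and a single substitution, A13C, counted from 1 at the left end of the *Meis1* block.
Meis1 block, chr11:19018971-19018995: GAACCCGGAAGTAGTGGTGGCCATA
Meis2 block, chr2:116065734-116065758: GAACCCGGAAGTCGTGGTGGCCATA
The centre of the block lay 2 bp from the nearest annotated TSS of *Meis1* and 93 bp from that of *Meis2*. Its letters CCGGAAGT, the core bound by ETS factors, occurred on either strand in 3.89% of 32851 RefSeq promoters of GRCm38. That table held 5 of the 6 genes, and *Meis1* and *Meis3* carried these letters in its promoter windows. The *Meis2* window of the table began at another start site and did not contain the block. The letters GGTGGCCAT occurred in 0.301% of the promoters, among them that of *Meis1*.

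The lists themselves set limits on each comparison. Summit reads, the pileup height at a summit, were recovered from each peak's fold enrichment together with its −log10 p. Background never fell below 38.8 reads for the parent or 19.7 for the deletion list, a ratio of 1.98, so a given read number stands for less accessibility in the parent. Regions were therefore compared by their rank within a list (top 1% is highest), or by relative height, the summit reads divided by the lowest background of the list. A centred ratio is the relative height in the deletion list over that in the parent, divided by the median of that ratio over all shared regions. Unless stated otherwise, ranks are by summit reads. These include broad signal around a summit, which fold enrichment over the local background takes out. At the TSSs of *Meis1* and *Meis2* the local background in the parent list was 403 and 451 reads, and there the ranks by fold enrichment (top 58.4% and 65.3%) were far below those by reads. All 10 neural stem and progenitor marker genes had a region within 1 kb of a TSS in both lists, and 4 of 5 pluripotency markers, *Pou5f1* and *Nanog* among them, had none in either. Such regions were present for 2 of 4 mesoderm and 1 of 4 epithelial markers in the parent and for 4 and 3 in the deletion list, and for 3 and 4 of 4 neuronal markers. The deletion list was also the longer, with 107480 regions beside 82885, and these counts were not set beside the share over all genes. The part of other cell types in the values below was not tested.

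About as many regions were found in one list alone as in the other. Of the 31 parent regions, 13 (41.9%, 95% Wilson interval 26.4% to 59.2%) overlapped no deletion region by even 1 bp, beside 52.3% of all parent regions. Of the 31 deletion regions, 12 (38.7%, 23.7% to 56.2%) overlapped no parent region, beside 63.1% of all deletion regions. The remaining 18 parent and 19 deletion regions formed 17 shared regions, for a union of 42. Intervals cover counting error only. Promoters are shared more often than other regions, so the shares were also taken beyond 1 kb of a TSS. There, 12 of 23 parent regions (52.2%) and 12 of 24 deletion regions (50.0%) stood in one list alone, beside 57.2% and 64.5% of all regions between 1 kb and 50 kb from a TSS. The 95% Wilson intervals of these shares, 33.0% to 70.8% and 31.4% to 68.6%, include the shares over all regions.

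The genes differed in which list held the extra regions. *Meis1* had 3 parent-only, 4 deletion-only and 4 shared regions, and *Meis2* had 5, 6 and 5. *Meis3* had 2 parent-only and 3 shared regions, *Pbx2* had 1 and 2, and *Pbx3* had 2 and 2, and none of these had a deletion-only region. *Pbx4* was the reverse, with 2 deletion-only regions, 1 shared region and no parent-only region. With between 3 and 16 regions in the union per gene, these counts are descriptions only. Which list held more regions of *Meis1* or *Meis2* alone turned when the lists were cut to equal length by fold enrichment.

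**Figure D1:**
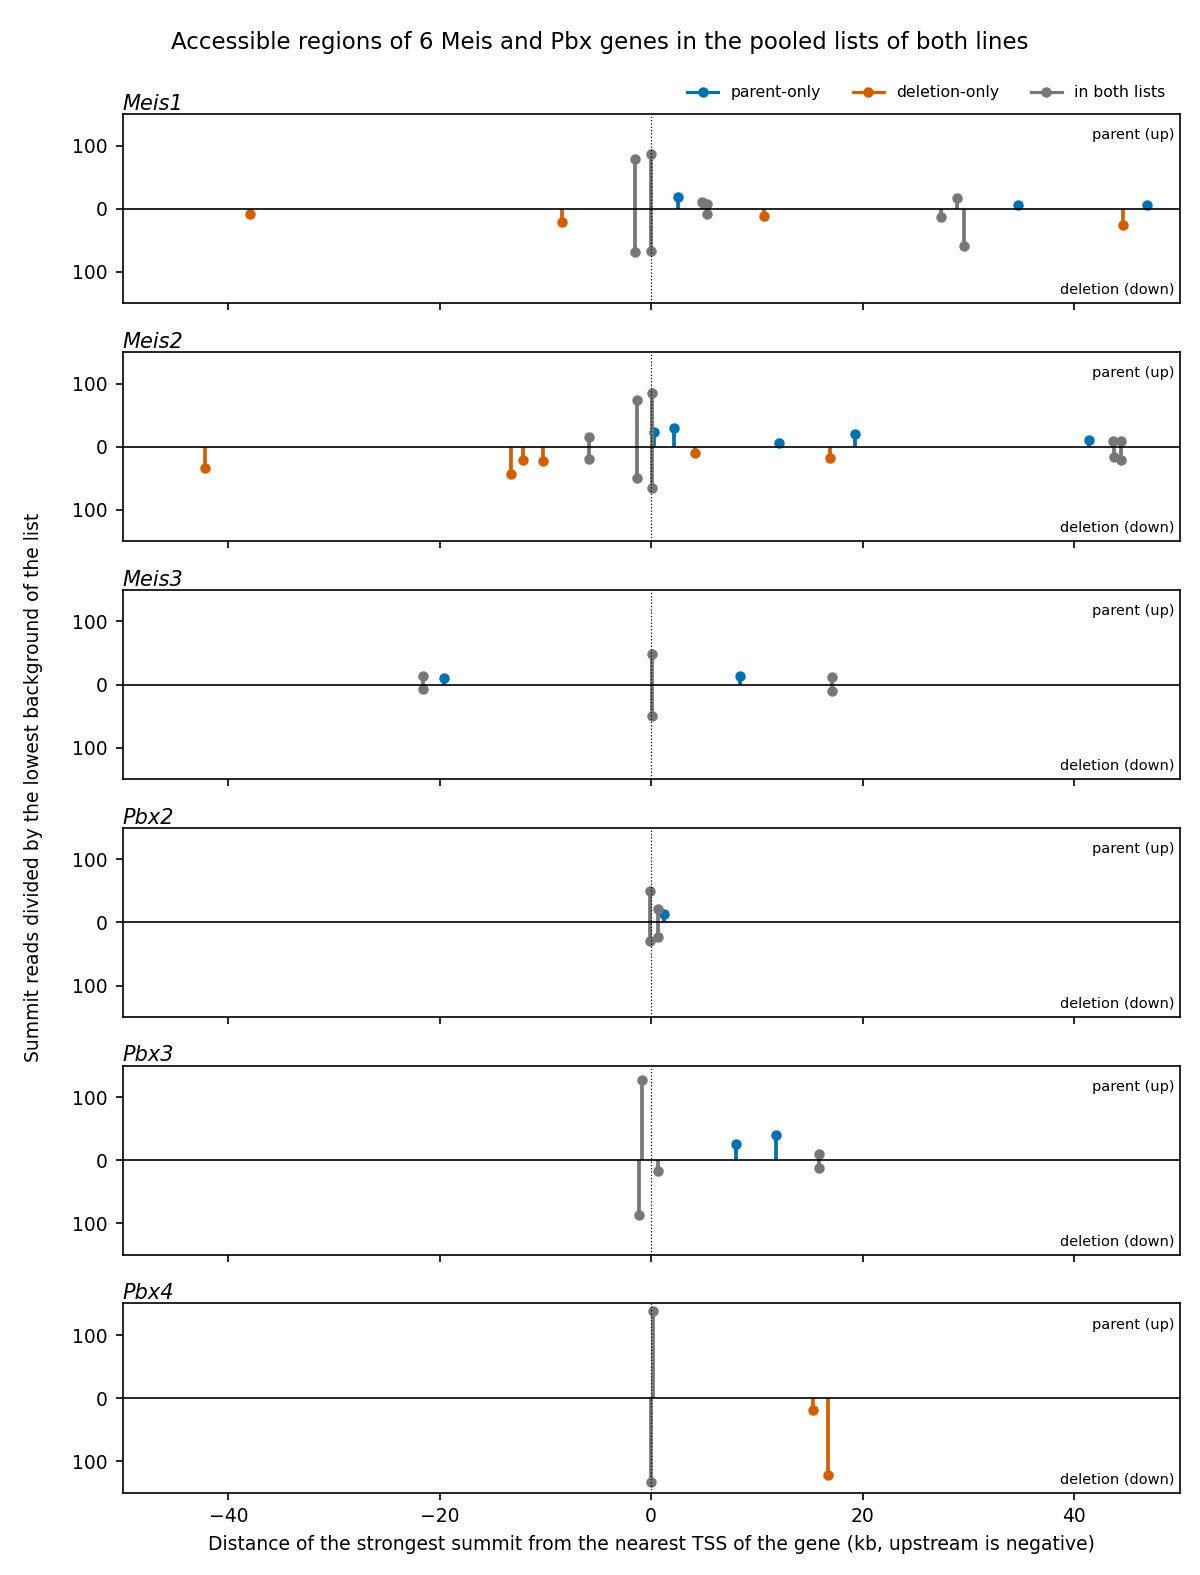
Each stem is a region, placed at the distance of its strongest summit from the nearest TSS of the gene (kb, upstream negative), with relative height (summit reads over the lowest background of the list) drawn upward for the parent and downward for the deletion list. Colours separate parent-only, deletion-only and shared regions. The tallest stem away from a TSS is the deletion-only region of *Pbx4* at 16.7 kb, and the 4 deletion-only regions upstream of *Meis2* have no parent counterpart.

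*Pbx4* (chr8:69832491-69872292, plus strand), a PBX family member, showed the tallest region of the set. Its TSS region had 5393 summit reads in the parent (top 3.17%) and 2619 in the deletion list (top 1.39%). At the summit placed alike in both lists, 17 bp and 23 bp from the TSS, the relative heights were 136.1 and 133.2, a centred ratio of 1.15. Both lines were therefore open at the *Pbx4* start to a similar relative height. In an intron, 16.7 kb downstream of the TSS, the region chr8:69848864-69849457 had 2387 reads and a fold enrichment of 22.0 in the deletion list. It ranked in the top 1.95%, with a relative height of 121.4 beside 133.2 at the TSS, and neither parent list held a region there. Its AP-1 match is the one printed above. A second deletion-only region, 15.4 kb from the TSS, was far lower, with 356 reads (top 49.7%).

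*Pbx3* (chr2:34171457-34373142, minus strand), a PBX gene active in the nervous system, was open at its TSS in both lists and at 2 intron regions in the parent list alone. The parent TSS region was a single interval, chr2:34371075-34373454, with 5 summits. It had 4941 reads at its strongest summit (top 4.34%), 836 bp upstream of the nearest TSS. The deletion list held 2 intervals over the same stretch. Their strongest summits had 1720 reads (top 5.27%) 1142 bp upstream and 331 reads (top 52.8%) 689 bp downstream. These distances are to the start sites used here, which lie inside the gene span given above. The 5′ end of that span is chr2:34373142. The parent summit at 34372880 lay inside it, in an intron, and the deletion summit at 34373186 lay just upstream of it. The latter stood at the 5′ end of the gene, although it counted as beyond 1 kb in the shares above. At all 3 summits that lay within 100 bp of each other in both lists the relative height was lower in the deletion list, with centred ratios of 0.840, 0.729 and 0.709. The 2 parent-only regions lay in introns, 11.8 kb and 8.1 kb downstream, with 1527 reads (top 27.1%) and 1005 reads (top 37.8%). Neither was found in the optimal list of the deletion line. The higher of them, chr2:34359457-34360625, had 3 summits and holds the HOX-PBX match printed above at the edge of its window. A shared intron region 15.9 kb downstream had 393 and 243 reads (top 69.5% and 66.4%), relative heights of 10.1 and 12.4 and a centred ratio of 1.44. By fold enrichment it stood at the top 95.8% in the parent and the top 42.7% in the deletion list.

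*Pbx2* (chr17:34591266-34597400, plus strand) is a short gene and its 3 regions all lay at its 5′ end. The region 149 bp upstream of the nearest TSS had 1952 reads in the parent (top 21.6%). Its deletion counterpart had 574 (top 31.5%), and the relative heights were 50.3 and 29.2, a centred ratio of 0.685. The next region, about 0.6 kb downstream, had 815 and 440 reads (top 44.2% and 41.2%), with relative heights of 20.98 and 22.38 and a centred ratio of 1.26. The first of these neighbouring regions was thus lower in the deletion list, while the second was nearly level before centring. The remaining region, 1.2 kb downstream, was parent-only with 532 reads (top 58.5%).

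*Meis1* (chr11:18879817-19018985, minus strand), needed for blood stem cells and eye development, had 2 tall regions at its 5′ end in both lists. The one at the TSS had 3365 reads in the parent and 1315 in the deletion list (top 10.6% and 9.59%). The one 1.5 kb upstream had 3058 and 1361 reads (top 12.6% and 8.96%). Relative heights were 86.6 and 66.9 at the TSS and 78.7 and 69.2 at 1.5 kb, lower in the deletion list at both. The centred ratios were 0.910 and 1.04, so the second changed sides with centring. The intron region near 29 kb had the largest excess in the deletion list of all 17 shared regions, a centred ratio of 4.13, with 648 reads in the parent (top 51.8%) and 1148 in the deletion list (top 12.4%). The summits behind that value were 632 bp apart, however. At the place of the parent summit, 28.9 kb downstream, the deletion list had a summit 98 bp away with 281 reads, and the relative heights were 16.7 in the parent and 14.3 in the deletion list, a centred ratio of 1.01. The higher deletion summit, 29.6 kb downstream, lay outside the parent interval chr11:18989364-18991088, and the parent list had no summit there. It is the second sequence above, with an AP-1 match. The excess was therefore a separate summit beside one of much the same relative height in both lists.

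**Figure D2:**
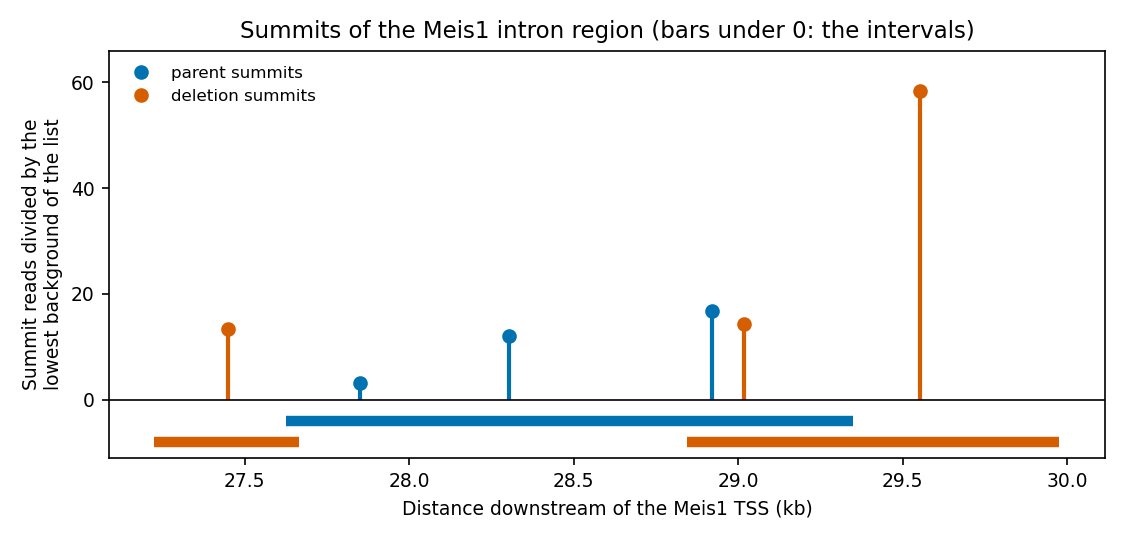
Every summit of the *Meis1* intron region by distance downstream of the TSS (kb) and relative height (summit reads over the lowest background of the list), with parent in blue, deletion in orange and the called intervals as bars under 0. The neighbouring summits of the lists at 28.9 kb and beyond it reach 16.7 and 14.3, and the deletion summit at 29.6 kb reaches 58.4 beyond the end of the parent interval.

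The other *Meis1* regions were lower. The shared region near 5 kb had 2 parent intervals (436 and 303 reads) and 1 deletion interval (173 reads). Its nearest annotated TSS was that of *Gm16141* and not that of *Meis1*. The distances were 48 bp and 373 bp for the parent summits and 419 bp for the deletion summit. Of the 4 deletion-only regions, the highest lay in an intron 44.7 kb downstream, with 497 reads (top 36.5%) and an AP-1 match, printed above after the other *Meis1* intron. The other 3 had 401 reads 8.5 kb upstream, 224 reads 10.7 kb downstream and 162 reads 37.9 kb upstream. The 3 parent-only regions had 716 reads at 2.5 kb, 226 at 34.7 kb and 217 at 46.9 kb downstream (top 48.4%, 90.1% and 91.4%). All 3 were weak, since the one at 2.5 kb stood on a high local background and had a fold enrichment of 1.71, which put it at the top 99.97%.

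*Meis2* (chr2:115863064-116065839, minus strand), expressed in the developing forebrain and hindbrain, had the most regions, 10 in the parent and 11 in the deletion list. Its TSS region had 3284 reads in the parent and 1291 in the deletion list (top 11.1% and 9.95%), and the region 1.4 kb upstream had 2861 and 962 (top 13.8% and 16.4%). Relative heights were 84.5 and 65.7 at the TSS and 73.7 and 48.9 upstream, with centred ratios of 0.916 and 0.783. Upstream beyond 1 kb the deletion list held 6 regions, 4 of them deletion-only, and the parent list held 2, both shared. The 4 had 847 reads at 13.2 kb (top 19.7%), 674 at 42.2 kb (top 26.3%), 453 at 10.2 kb and 402 at 12.2 kb. By fold enrichment the one at 42.2 kb came first, at 24.8 (top 3.20%), and the one at 13.2 kb had 11.5 (top 44.3%). Those at 13.2 kb and 12.2 kb lay in an intron of the noncoding gene *G630016G05Rik*. That at 10.2 kb lay in an exon of *2810405F15Rik*, 38 bp from its TSS. The shared region 1.4 kb upstream lay in an exon of *2700033N17Rik*. It was 24 bp (parent) and 59 bp (deletion) from a TSS of *G630016G05Rik*. For these regions *Meis2* is the nearest protein-coding gene and not the nearest annotated one. Downstream beyond 1 kb the counts ran the other way, with 6 parent regions (4 parent-only) and 4 deletion regions (2 deletion-only). The parent-only regions had 1135 reads at 2.1 kb (top 34.4%), 767 at 19.3 kb (top 46.1%), 404 at 41.4 kb and 232 at 12.1 kb, and the one 0.3 kb from a TSS had 894 (top 41.3%). By fold enrichment the order differed, with 13.6 at 19.3 kb (top 32.3%), 2.81 at 2.1 kb (top 97.8%) and 1.99 at 0.3 kb (top 99.8%). The last of these was also missing from the optimal list of the parent. The deletion-only regions inside the gene had 358 reads at 16950 bp and 209 at 4.1 kb. A pair of shared intron regions was higher in the deletion list, with centred ratios of 2.89 at 44.4 kb (345 reads in the parent and 428 in the deletion list, top 74.4% and 42.2%) and 2.02 at 43.7 kb (372 and 322 reads, top 71.7% and 53.8%). The strongest summits of the lists were at most 71 bp apart in these regions. The relative heights were 8.88 and 21.8 at 44.4 kb and 9.58 and 16.4 at 43.7 kb, so the latter reached 2-fold after centring only.

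*Meis3* (chr7:16175090-16186504, plus strand), a MEIS gene active in the hindbrain, had 1884 reads at its TSS in the parent and 969 in the deletion list (top 22.4% and 16.3%), with relative heights of 48.5 and 49.3 and a centred ratio of 1.20. Of its 4 regions away from the TSS, 2 were parent-only and the shared pair had a smaller relative height in the deletion list. The shared region 21.6 kb upstream, in an intron of *Slc8a2*, was the lowest of the 17 relative to the parent, with 543 reads in the parent (top 57.7%) and 144 in the deletion list (top 89.1%), relative heights of 14.0 and 7.32 and a centred ratio of 0.618. The parent-only regions had 417 reads 19.6 kb upstream, also in *Slc8a2*, and 496 reads 8.4 kb downstream. The latter was the 1 of 13 parent-only regions that the optimal list of the deletion line did hold. A shared intergenic region 17.2 kb downstream had 444 and 194 reads and relative heights of 11.4 and 9.87, with a centred ratio of 1.02.

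Over the 17 shared regions the relative height was centred on the median of all shared regions, which was itself −0.24 on the log2 scale. The median of the 17 was 0.05, with a range from −0.69 to 2.05, and 10 were higher and 7 lower in the deletion list. Without centring 7 were higher and 10 lower, as 3 regions with centred ratios from 1.02 to 1.13 changed sides. At least 2-fold higher in the deletion list were 3 of the 17, beside 19.2% of all 39072 shared regions, and at least 2-fold lower were 0, beside 11.3%. The median was −0.13 for the 7 regions within 1 kb of a TSS and 0.29 for the 10 farther away, beside −0.23 and 0.23 for all shared regions split in the same way. In 4 of the 17 the strongest summits of the lists were more than 100 bp apart. Over the other 13, recentred on all shared regions with summits that close, the median was 0.06. Of these 13, 2 were at least 2-fold higher and 0 at least 2-fold lower, beside 17.5% and 9.78% of all 32074 such regions.

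**Figure D3:**
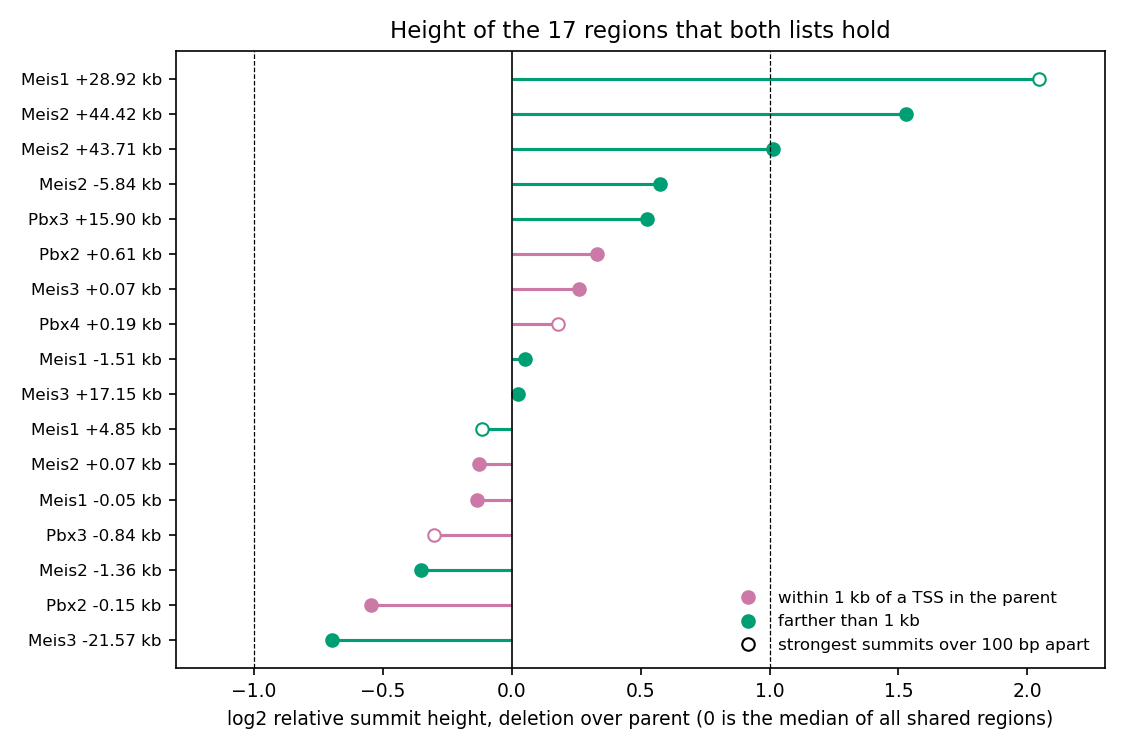
The log2 ratio of relative height, deletion over parent, of each of the 17 shared regions, named by gene and by distance of the parent summit from the TSS, with 0 at the median of all shared regions and dashed lines at 2-fold. Points run from −0.69 (*Meis3*) to 2.05 (*Meis1*), and open points mark the 4 regions whose strongest summits were over 100 bp apart.

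Motif letters were counted within 100 bp of the strongest summit on both strands, for MEIS (TGACAG), HOX-PBX (TGATNNAT), AP-1 (TGANTCA) and SOX (ACAATG). In the deletion-only class, AP-1 matched in 2 of 12 regions (16.7%, 95% Wilson interval 4.70% to 44.8%), those of *Pbx4* at 16.7 kb and *Meis1* at 44.7 kb, beside 50.7% of all 67794 deletion-only regions. The MEIS, HOX-PBX and SOX letters matched in 0 of the 12, beside 16.5%, 17.4% and 12.0%. In the parent-only class, the 13 regions held 1 HOX-PBX match (*Pbx3*) and 1 SOX match (*Meis1*), and 0 for MEIS and AP-1, beside 6.36%, 16.6%, 17.9% and 4.58% of all parent-only regions. The shared regions held all the MEIS matches of the 6 genes. These letters stood in 6 of 19 shared deletion regions (31.6%, 15.4% to 54.0%), beside 13.9% of all, and in 3 of 18 shared parent regions (16.7%, 5.84% to 39.2%), beside 14.6%. SOX letters matched in 4 of the 18 parent (22.2%, 9.001% to 45.2%) and 3 of the 19 deletion summits, beside 8.93% and 8.26%. AP-1 letters matched in 1 and 2, beside 10.2% and 16.1%, and HOX-PBX letters in 0 of both, beside 4.96% and 6.30%. Most shared regions have their summits at the same place in both lists, so these counts are not separate evidence. The interval left out the share over all regions for AP-1 in the deletion-only class, MEIS at shared deletion summits and, barely, SOX at shared parent summits. These were 3 of 16 intervals compared, and none was tested. Beyond 1 kb of any TSS, MEIS matched in 3 of 10 shared deletion regions (30.0%, 10.8% to 60.3%), beside 15.8%. That interval included the share over all regions. The intervals for AP-1 in the deletion-only class (2 of 11, 5.14% to 47.7%, beside 51.5%) and SOX at shared parent summits (3 of 8, 13.7% to 69.4%, beside 11.5%) still left it out.

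**Figure D4:**
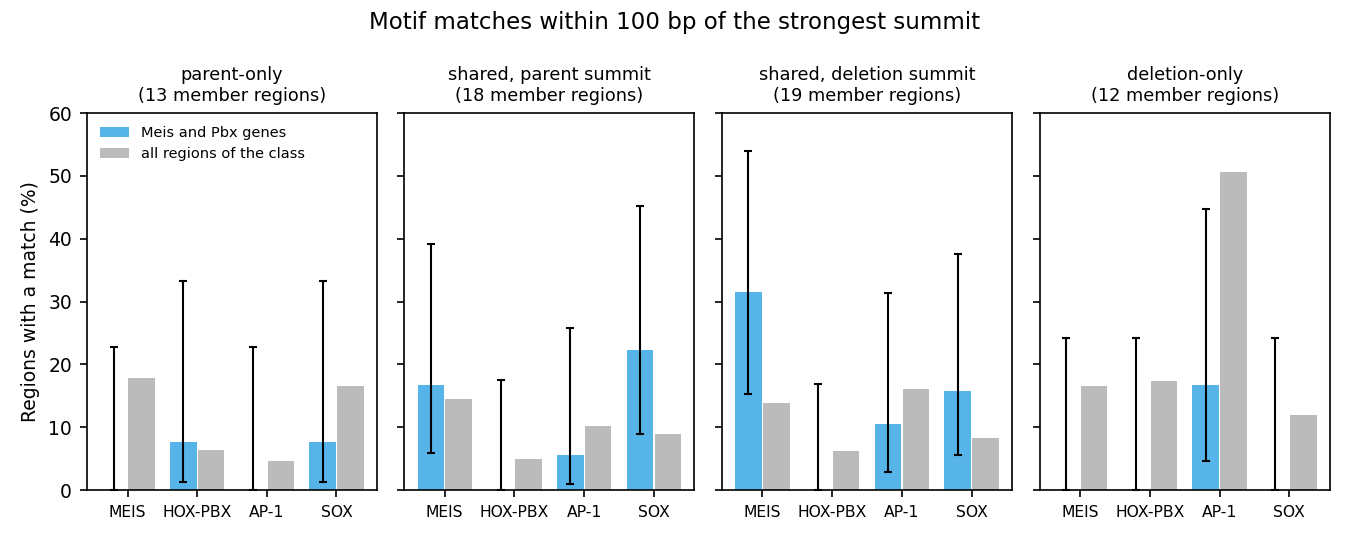
Share of regions (%) with a match within 100 bp of the strongest summit, by class of region, for the Meis and Pbx genes (blue, 95% Wilson intervals, counting error only) and for all regions of the class (grey). AP-1 stands at 16.7% of the 12 deletion-only regions of these genes and at 50.7% of all deletion-only regions.

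The limit of 50 kb cut through the surroundings of the longer genes. In the parent list the region just inside lay 46.9 kb from *Meis1* with 217 reads and the one just outside 54.1 kb from it with 219. In the deletion list the nearest inside was that of *Meis1* at 44.7 kb (497 reads) and the nearest outside belonged to *Meis2* at 61.9 kb (98 reads). Farther out, *Meis1* remained the nearest protein-coding gene of 37 parent regions (24 parent-only) and 55 deletion regions (42 deletion-only), up to 525.4 kb away. *Meis2* had 13 and 14 such regions (6 and 7 in one list alone) and *Pbx3* had 6 and 6 (5 and 5), while *Meis3*, *Pbx2* and *Pbx4* had none. Over all regions at any distance, 52.3% of the parent and 63.1% of the deletion list stood in one list alone. That share was not taken beyond 50 kb only, so no gain or loss around a gene is read from these counts.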

How the data were processed

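Per the labels and the study's methods, the authors sequenced ATAC-seq libraries of 3 cultures per line, ran the ENCODE ATAC-seq pipeline (version 1.10.0, mm10), in which MACS2 called the peaks, and combined cultures by irreproducible discovery rate (IDR). The submitters' processing notes also name deepTools. The paper kept the conservative IDR peaks and, for the peak sets it intersected, states a MACS2 Q value limit of 0.05. Settings beyond these were not found in its text. The 4 deposited lists, 1 conservative and 1 optimal per line, hold for each peak an IDR score, a fold enrichment (a ratio to the local background), the −log10 p and q values (the q values were not used), and the offset of the summit. These are the authors' values on pooled reads, and the depth of each culture is unknown. Cast reads can map less often to mm10, and the lists do not separate alleles.

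Conservative lists were used. An interval with several summits took the values of the one with the highest fold enrichment. Summit reads and local background were solved from fold enrichment and −log10 p under a Poisson model, and 99.9993% (parent) and 100% (deletion) of peaks gave whole reads within 0.05. TSSs were those of 21938 protein-coding genes of GENCODE M21 basic. Regions overlapping by 1 bp or more were shared. Solving, overlap, nearest-TSS and motif steps were tested on simulated data. Python 3.11.15, pandas 2.3.3, numpy 2.4.6, scipy 1.17.1 and numba 0.67.0 were used. The genes, motifs and lists were chosen with earlier results of these data known. Described in full were all regions within 1 kb of a TSS, the highest region of each class beyond it and the largest rise and fall per gene, and others were added after their values were seen. Windows that reach an annotated exon were not printed. Alternatives were the optimal lists, an IDR score of at least 830, 50% reciprocal overlap, a summit inside the other interval, absence from both lists, lists of equal length, 10 kb and 500 kb limits, gene 5′ ends, merged intervals, other height measures and motif windows. Regions held to a −log10 p of 20 or 50 at a common depth, and summits within 100 bp, were added after seeing the data.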

Additional observations from a re-analysis of the deposited data

How the results depend on the processing

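No paired analysis was possible because the lists are pooled over cultures, and for the same reason no culture could be left out. The counts of 13 parent-only, 12 deletion-only and 17 shared regions stayed within 1.5 times under the other settings except these. Under 50% reciprocal overlap they were 20, 20 and 11. Within 10 kb they were 6, 2 and 11, and within 500 kb 48, 65 and 37, as more or fewer regions were taken in. With lists of equal length by fold enrichment, deletion-only regions fell to 7, as the deletion list was shortened. At a common depth, chosen after seeing the data, a −log10 p of 20 gave 13, 12 and 17 and of 50 gave 9, 14 and 15. The excess of deletion-only over parent-only regions, 1 for both *Meis1* and *Meis2*, has no stable sign: it was −2 and −4 with equal lengths by fold enrichment, −3 for *Meis1* by −log10 p, and −1 for *Meis2* within 10 kb. In 13 alternatives it was always below 0 for *Meis3*, *Pbx2* and *Pbx3* (−3 to −1) and never below 0 for *Pbx4* (0 to 2). The alternatives re-use the same pooled lists, and in the main setting these signs rest on 1 or 2 regions per gene. They are therefore not separate evidence. The median log2 height of 0.05 was 0.20 by fold enrichment, 0.18 by −log10 p and −0.19 without centring, so no direction was read from it. It was 0.06 with summits within 100 bp. Over all 62 regions, a 50 bp motif window gave MEIS 8.06%, HOX-PBX 0%, AP-1 3.23% and SOX 6.45%, from 14.5%, 1.61%, 8.06% and 12.9%. Absence from a list means below its limits of depth and IDR, not closed chromatin.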

Other observations

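Other TALE homeobox genes, counted by the same rule, held 41 parent regions (17 parent-only) and 46 deletion regions (19 deletion-only). Over all regions, 52.3% of the parent and 63.1% of the deletion list stood in one list alone. The 6 genes had 13 parent-only of 31 and 12 deletion-only of 31, so such counts were not particular to them. *Pknox1* had 3 parent-only and 1 deletion-only region, *Pknox2* had 8 and 6, *Tgif1* had 4 and 6, and *Tgif2* had 2 and 0. *Mkx*, known for tendon development, had 0 and 6.

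Counts of parent-only, shared and deletion-only regions like those of *Meis1* were not rare: *Arhgef17*, *Bcr* and *Bmf* had the same 3, 4 and 4, and 17 genes were as near in these counts. *Mtss1* and *Wnt5a* matched the 5, 5 and 6 of *Meis2*, and *Abca1* differed by 1 region, with 26 genes as near. Likeness here is a match of 3 counts and says nothing of shared control.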
